A study of Mus musculus with 12 samples.

Results

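Endurance training was compared across 2 kinds of mouse muscle fibre at once. All 12 libraries of the series entered the comparison, 6 from trained and 6 from untrained mice, and each set of 6 held 3 libraries of type I and 3 of type IIb fibres. One additive model with a term for fibre type gave each gene a single training coefficient, the log2 fold change of trained over untrained fibres that both fibre types share. No gene passed the test: of 11747 genes tested, 0 were higher and 0 were lower at an adjusted p under 0.05 (edgeR quasi-likelihood F test with Benjamini-Hochberg adjustment), which is 0% in either direction. The smallest adjusted p was 0.891, for Mgp, and every other gene had an adjusted p of 1. On the same model DESeq2 called 1 feature without a gene symbol higher, at a log2 fold change of 23.8, and 1 predicted gene, Gm4925, lower, at -23.7. By limma-voom, weighted for library quality, 2 were called higher and 4 lower. By limma-voom without these weights, libraries of the same training label and number were tied as a block (limma's duplicateCorrelation). There 7 were called higher (Tnnt1, Ttn, Atp2a2, Acta1, Cryab, Klhl41 and Tnnt3) and 1 lower (Tpm2). The correlation fitted within these blocks was 0.010, and the part of the block in these calls was not tested. At an unadjusted p under 0.05, 78 genes (0.664%) had a higher and 121 genes (1.03%) a lower estimate. That balance was not stable: it was 318 higher and 187 lower with the number of detected genes as a covariate, and 102 and 471 without type IIb trained replicate 3. The sections that follow therefore describe levels and estimates, and no gene named in them passed the adjusted edgeR test.

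Type I fibres are slow and oxidative, carry the myosin heavy chain of Myh7 and rely on mitochondrial respiration of fat and carbohydrate. Type IIb fibres are fast and glycolytic and carry the heavy chain of Myh4. Repeated endurance exercise is known for raising the mitochondrial content and the capacity for fat oxidation of muscle, through transcriptional regulators that act on nuclear genes of the respiratory chain, while each single bout of contraction briefly switches on immediate early genes such as Fos and Egr1.

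The mice were male C57BL/6J, labelled as 8 weeks old in all 4 groups. Trained mice had run on a treadmill for 6 weeks, for 60 min at 12 to 16 m/min on 5 days of each week, and were dissected 3 days after the last run. The other mice are labelled untrained, and the labels do not say whether the age was taken before or after the training. Type I fibres came from the soleus, digested for 90 min in collagenase (2 mg/ml, 37 °C), and type IIb fibres from the extensor digitorum longus, digested for 60 min. Part of each fibre was used to type its myosin heavy chain and the remainder went into a SMART-Seq full-length cDNA library. The fibre type term therefore also carries the muscle and the digestion time, which cannot be told apart from it, whereas both training groups hold both muscles in equal numbers. The labels name neither the mouse behind a library nor the number of fibres in it, so the p-values measure the spread between these libraries, which may be partly technical.

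By their myosins the fibre type labels held in every library. Myh7 reached 251 to 542 CPM (counts scaled to a common library size, and further scaled by TMM, edgeR's correction for library composition) in untrained and 165 to 1319 in trained type I fibres, against at most 0.0722 in type IIb fibres. Its partner light chain Myl2 lay between 3662 and 25396 in type I and at or under 0.738 in type IIb fibres. Myh4 was at 27831 to 55690.5 in untrained and 27102 to 102683 in trained type IIb fibres and at or under 1.62 in type I fibres, and the fast light chain Mylpf was at 17819.6 to 39618 against 113 to 681. The heavy chains of the intermediate fast fibres, Myh2 and Myh1, reached at most 48.3 and 92.6 CPM in any library. A wider list of 8 type IIb markers summed to 419 to 4890 CPM of the library total in type I and 80944 to 154001 in type IIb libraries. Of these 8 markers 7 had enough counts to be tested. The other, Tnnc2, was at 0 in every trained library of both fibre types. Its counts over all libraries were too few for a test, so no training estimate was made for it. The 8 type I markers summed to 32577 to 55771 in type I and at most 31.0 in type IIb libraries.

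Depth ran from 8026397 to 24995288 counts a library, so that 1 count was worth 0.0400 to 0.125 CPM of the library total. The number of genes with at least 10 counts was 11947 ± 2368 (SD, n = 3) in untrained and 8150 ± 3213 (SD, n = 3) in trained type I fibres, and 6269 ± 2777 (SD, n = 3) and 7044 ± 3463 (SD, n = 3) in type IIb fibres. The mean difference over the fibre types, trained minus untrained, was -1511 genes, within the spread of the libraries (two-sided exact permutation test within fibre type, p = 0.395, with 0.005 the smallest p it allows). Markers of other cell types varied widely between libraries of 1 group. The 11 fibroblast markers together reached 9646 CPM of the library total in type I untrained replicate 3, against 27.0 and 307 in the other 2 untrained type I libraries, 59.2 to 138 in the trained ones, 3.12 to 10.7 in untrained and 0.632 to 315 in trained type IIb libraries. The 15 endothelial markers together lay at 661 to 2974 in untrained and 690 to 1872 in trained type I fibres, and 14 of them were at 0 in all 3 untrained type IIb libraries, whereas type IIb trained replicate 3 held 505 CPM. In such libraries fewer cells of another type and less RNA per cell cannot be told apart. The 3 libraries highest in endothelial markers were type I untrained replicates 1 and 3 and type I trained replicate 1. Fits without these 3 keep only 1 untrained type I library and also lose the library highest in fibroblast markers. Shifts in them can therefore not be put down to endothelial RNA.

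**Figure D1:**
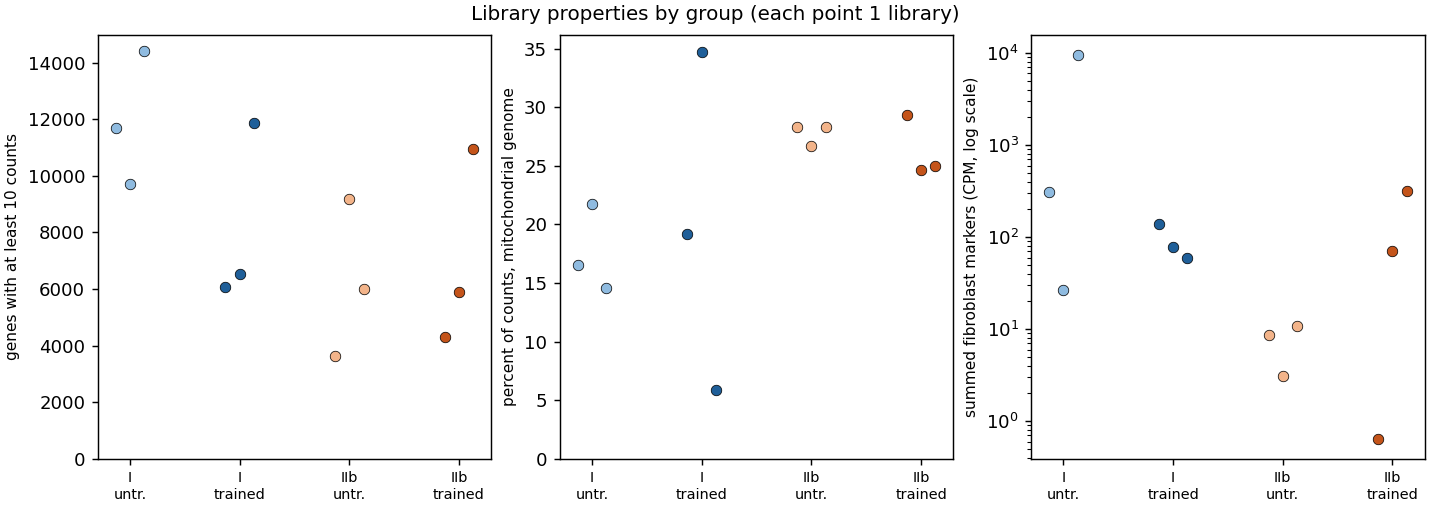
Number of genes with at least 10 counts (left), percent of counts from the mitochondrial genome (middle) and summed CPM of 11 fibroblast markers on a log axis (right), with 1 point for each of the 12 libraries in their 4 groups. Points of trained and untrained libraries overlap in all 3 panels within type I fibres, and type I untrained replicate 3 stands at 9646 CPM of fibroblast markers.

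Small p-values of the training coefficient were fewer than an even spread would give. An even spread puts 587.35 genes under 0.05, and 199 genes were there. The model's reach depended on level. For the 108 genes with a mean of at least 1000 CPM the 95% interval reached a median of 0.85 to either side on the log2 scale, a fold of 1.81, and in 89 of them the interval lay within a 4-fold change either way. For the 1041 genes between 100 and 1000 CPM the reach was 1.13, a fold of 2.20, and 764 intervals lay within 4-fold. Between 10 and 100 CPM it was 3.07, a fold of 8.38, and for the 5951 genes under 10 CPM it was 4.31. Over all 11747 genes the median reach was 3.64, a fold of 12.5. For most genes even changes well above 2-fold were thus not detectable with this number of libraries.

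The estimates of the 2 fibre types had the same direction in about as many genes as not. Fitted with 1 mean for each of the 4 groups, the training estimate had the same sign in type I and type IIb fibres for 45.7% of all genes and for 51.2% of the 1149 genes with a mean of at least 100 CPM. Of those 1149 genes, 454 had higher estimates in both fibre types and 134 had lower ones in both. The Pearson correlation of the 2 estimates was -0.20 over all genes and -0.15 over those 1149 (Spearman -0.14 and 0.006). Over all 11747 genes, 4996 had a higher estimate in type I and 7163 in type IIb fibres, and 2888 were higher and 2476 lower in both. The counts of list members within a fibre type below are to be read against these. The median estimate over all genes was 0.13 in the additive model, and it was -0.28 in type I fibres and, with 1876 genes that were at 0 in a type IIb group set at the bound that 3 counts allow, 0.29 in type IIb fibres. With DESeq2's size factors in place of TMM the median of the additive model moved from 0.13 to -0.02, and estimates near 0 are to be read against that shift. No gene passed the test of a difference between the 2 training effects either (0 called, smallest adjusted p 0.418, at an unadjusted p under 0.05 the type I effect exceeded the type IIb effect in 113 genes and fell short of it in 937). An even spread would put 587.35 genes there, both directions together. Among the genes with a mean of at least 100 CPM, 38 had a higher and 8 a lower additive estimate at an unadjusted p under 0.05.

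**Figure D2:**
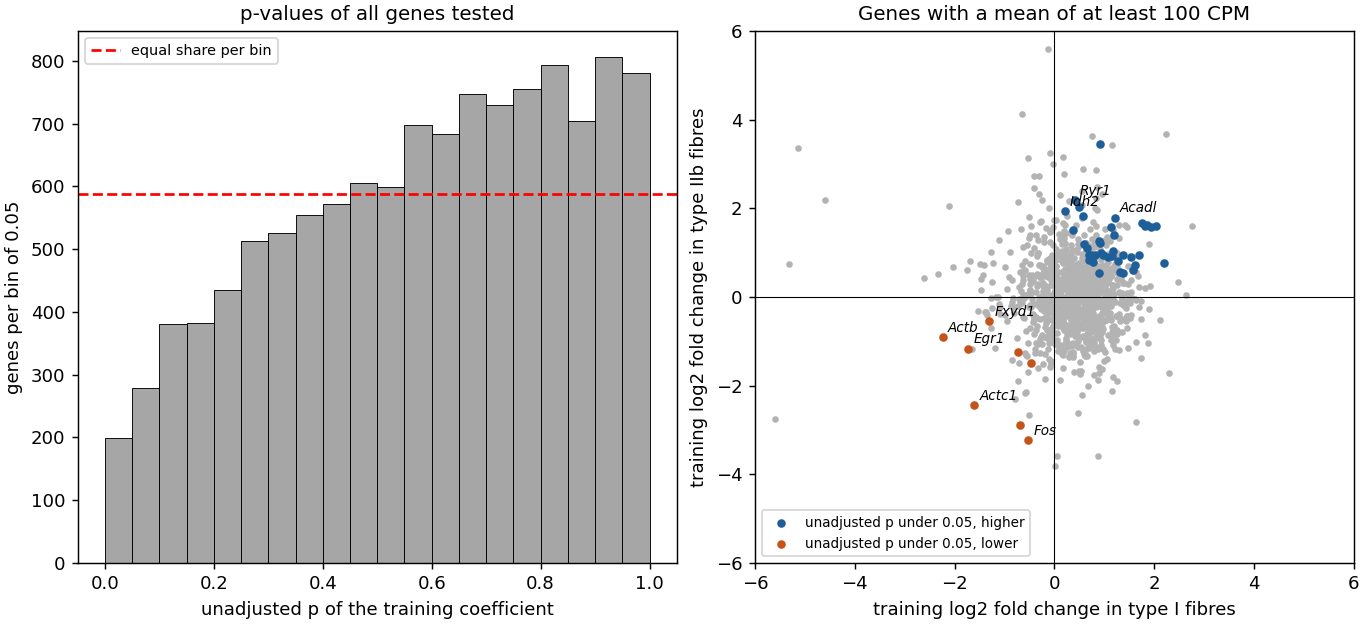
Left, number of genes in each of 20 bins of the unadjusted p of the training coefficient, with a dashed line at the 587.35 genes an even spread would put in each bin, and 199 genes in the lowest bin. Right, training log2 fold change in type I (x axis) against type IIb fibres (y axis) for the genes with a mean of at least 100 CPM, 1141 of which lie inside the axes, with the 38 higher and 8 lower genes at an unadjusted p under 0.05 in colour.

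Immediate early genes had lower estimates in trained fibres. These genes are transcribed within minutes of contraction, stretch or calcium entry, without new protein synthesis, and most of them encode short-lived transcription factors. Of the 19 members tested, 14 had a lower and 5 a higher estimate, the median was -0.69 against 0.13 over all genes, and 10 members were lower in both fibre types against 1 that was higher in both. The median was -0.37 without type I trained replicate 3 and -1.24 without type I trained replicate 1. None passed the adjusted test, and 4 (Fos, Egr1, Btg2 and Fosb) had a lower estimate at an unadjusted p under 0.05, where 1.03% of all genes did. The summed level of the list was 4076, 5696 and 6073 CPM, in ascending order, across untrained type I libraries and 1486, 1499 and 5666 across trained ones, and 1101, 2810 and 6077 against 552, 1062 and 1684 in type IIb libraries. The highest trained library in each fibre type overlapped the untrained ones.

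Fos (ENSMUSG00000021250, chr12:85473890-85477273 in mm10), the founding member of the AP-1 factors, was at 926, 1598 and 1931 CPM in untrained and 2165, 643 and 303 in trained type I fibres. Fos in type IIb fibres was at 1165, 278 and 2402 in untrained and 171, 144 and 92.0 in trained libraries, so the groups did not overlap there, while type I trained replicate 1 was the highest of its fibre type. The training coefficient was -1.88 (SE 0.63, unadjusted p = 0.00795), made of -0.52 for type I and -3.24 for type IIb fibres, and the difference between the fibre types had an unadjusted p of 0.0113. Egr1, a zinc finger factor induced with Fos, was at 966, 1983 and 966 in untrained and 699, 150.4 and 337 in trained type I fibres, with no overlap. Egr1 in type IIb fibres was at 1130.1, 467 and 1733 and 911, 485 and 85.1, where trained replicates 1 and 2 lay inside the untrained range and replicate 3 lay below it. Its coefficient was -1.45 (SE 0.50, unadjusted p = 0.00917), and it was -1.72 for type I and -1.17 for type IIb fibres.

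Btg2 (ENSMUSG00000020423, chr1:134075170-134079120), an antiproliferative partner of mRNA deadenylation, was at 359.6, 399.6 and 423 in untrained and 399, 193 and 146 in trained type I fibres. Btg2 in type IIb fibres was at 59.4, 50.2 and 622 in untrained and 54.9, 27.1 and 17.0 in trained libraries, and the groups overlapped in both fibre types. The value of 622 in type IIb untrained replicate 3 carried much of the coefficient of -1.78 (SE 0.68, unadjusted p = 0.0172), which was -0.70 without that library. Fosb (ENSMUSG00000003545, chr7:19302696-19310051), which encodes a second Fos-family partner of Jun proteins, was at 32.7, 30.8 and 397 against 0.124, 9.54 and 2.36 in type I and 80.0, 12.2 and 35.2 against 31.7, 3.64 and 35.3 in type IIb fibres. The type I groups did not overlap and the type IIb groups did. Its coefficient of -3.05 (SE 1.43, unadjusted p = 0.0466) was -1.83 without type I untrained replicate 3, the library with the most fibroblast marker RNA, whose part in the value was not tested. Atf3, a stress-induced member of the same factor superfamily, was spread over 52.5 to 1599 in trained type I fibres alone and its coefficient was -0.45 (SE 0.74, unadjusted p = 0.554).

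The promoters of 3 of these genes are shown because the immediate early list has the lowest median of the lists, and because contraction and calcium act on many of them through cyclic AMP response elements, bound by CREB. RefSeq promoters of build GRCm38.p6 were available for 15 of the 19 members tested. Over the 250 bases before the annotated start, 11 of the 15 (73.3%) held the core of that element, TGACG on either strand, against 19.8% of the 27025 genes with a promoter in the same table. The E-box CACGTG was in 3 of the 15 (against 6.86% of all genes), and AAGGTCA, the element of oestrogen-related receptors, and TGANTCA, the AP-1 site, were in 0 of the 15 (against 4.70% and 7.82%). The TGACG core was also in 5 of 14 tricarboxylic acid cycle genes (35.7%) and 5 of 27 fat oxidation genes (18.5%), lists with mostly higher estimates. A match describes these letters and does not show a bound site. Whether the core bears on the training estimates was not tested. Each sequence runs 5′ to 3′ to the base before the start and has the core sites on either strand in capitals, and the windows are chr12:85473640-85473889, plus strand for Fos, chr7:19310046-19310295, minus strand for Fosb and chr1:134079156-134079405, minus strand for Btg2.
Fos: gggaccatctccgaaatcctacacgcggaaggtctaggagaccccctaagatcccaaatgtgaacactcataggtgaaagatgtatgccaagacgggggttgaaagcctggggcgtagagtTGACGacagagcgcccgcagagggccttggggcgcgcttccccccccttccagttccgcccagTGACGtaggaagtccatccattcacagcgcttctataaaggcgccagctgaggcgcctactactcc
Fosb: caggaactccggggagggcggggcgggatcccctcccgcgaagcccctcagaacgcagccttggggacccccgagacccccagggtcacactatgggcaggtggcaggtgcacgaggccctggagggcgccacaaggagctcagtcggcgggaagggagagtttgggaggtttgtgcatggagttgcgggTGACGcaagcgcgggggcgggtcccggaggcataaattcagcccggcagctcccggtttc
Btg2: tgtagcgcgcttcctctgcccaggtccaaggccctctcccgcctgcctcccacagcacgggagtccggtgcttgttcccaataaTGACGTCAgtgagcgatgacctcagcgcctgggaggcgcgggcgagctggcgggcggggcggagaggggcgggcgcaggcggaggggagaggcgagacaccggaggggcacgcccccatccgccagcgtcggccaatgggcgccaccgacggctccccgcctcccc
Fos held 2 core sites, which began 129 and 66 bases before the start, and Fosb held 1, which began 60 bases before it. In Btg2 the 2 matches, which began 166 and 163 bases before the start on opposite strands, overlapped to form a full palindromic element.

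Clock genes also had mostly lower estimates. They encode the transcription factors of the circadian oscillator and their direct outputs, so their levels depend on the time of day of dissection, which the labels do not give. Of 18 members tested, 13 had a lower and 5 a higher estimate and the median was -0.60, yet none had an unadjusted p under 0.05. The median was -0.31 without type IIb untrained replicate 2, -0.38 without type IIb trained replicate 1 and -0.23 without the 3 libraries highest in endothelial markers. Bhlhe41, a repressor of the oscillator, was at 192, 111 and 170.0 in untrained and 15.3, 68.9 and 98.5 in trained type I fibres, without overlap, and at 25.5, 585 and 785 against 409.7, 487 and 209.6 in type IIb fibres, with overlap. The coefficient was -0.85 (SE 0.62, unadjusted p = 0.183). Its paralogue Bhlhe40 had a coefficient of -0.62 (SE 0.57, unadjusted p = 0.289) and the nuclear receptor Nr1d2 had a coefficient of -0.71 (SE 0.66, unadjusted p = 0.299).

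Actin genes had the smallest p-values among the genes with a mean of at least 100 CPM. Actb (ENSMUSG00000029580, chr5:142903115-142906754), the non-muscle beta actin, was at 1972, 979 and 5051 in untrained and 536, 682 and 479.9 in trained type I fibres, and the groups did not overlap. Actb in type IIb fibres was at 1742, 733 and 967 and 447, 518 and 875, where the highest trained library lay above the lowest untrained one. The coefficient was -1.57 (SE 0.41, unadjusted p = 0.00113), with a 95% interval of -2.43 to -0.71, and it was -2.24 for type I and -0.90 for type IIb fibres. The highest value, 5051, belongs to type I untrained replicate 3, which also held the most fibroblast marker RNA, and the coefficient without it was -1.12. Without the 3 libraries highest in endothelial markers it was -0.91. The part of non-muscle cells in the Actb value was not tested further.

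Actc1 (ENSMUSG00000068614, chr2:114047282-114053548), the cardiac alpha actin that skeletal muscle also makes during development and repair, was at 3576, 659 and 1973 in untrained and 580.2, 452 and 108 in trained type IIb fibres, with no overlap. Actc1 in type I fibres was far lower, at 33.0, 26.4 and 119 and 2.74, 14.6 and 41.2, and the groups overlapped. The coefficient was -2.03 (SE 0.61, unadjusted p = 0.00348). The coding sequences of the actins are close to one another, and how reads shared between them were assigned is not given in the sources used here. Fxyd1 (ENSMUSG00000036570, chr7:31051678-31057199), which encodes phospholemman, a regulator of the sodium pump, was at 593, 696 and 761 in untrained and 262, 275 and 295 in trained type I fibres, with no overlap. Fxyd1 in type IIb fibres was at 801, 473 and 826 against 574, 259 and 608, which overlapped. The coefficient was -0.92 (SE 0.34, unadjusted p = 0.0135), and the list of ion channels and pump subunits to which it belongs had 10 lower and 7 higher estimates of 17 and a median of -0.18.

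**Figure D3:**
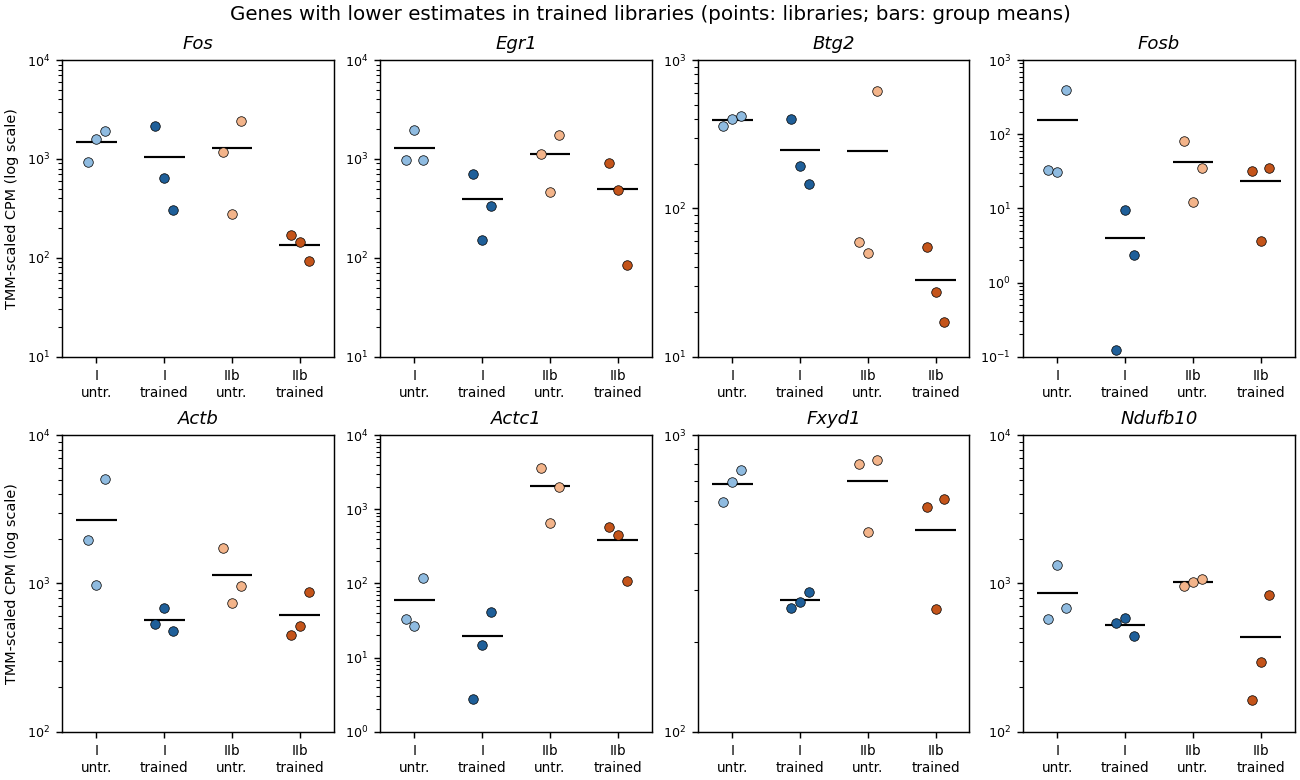
TMM-scaled CPM on log axes of 8 genes with lower estimates in trained libraries, with 1 point per library and a bar at each group mean. The 3 trained type IIb libraries of Fos sit at 92.0 to 171, under all 3 untrained ones, and the trained type I libraries of Actb and Fxyd1 sit under their untrained ones.

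Enzymes of fat oxidation had higher estimates. The list covers fatty acid uptake, activation, import into mitochondria and beta-oxidation. Of its 30 members tested, 21 had a higher estimate, with a median of 0.44. That median was -0.02 on log2(FPKM + 1) and -0.15 by limma-voom with quality weights. It was 0.13 by limma-voom without them, in the duplicateCorrelation fit. In type I fibres 24 of 30 were higher, where 4996 of all 11747 genes were. In type IIb fibres 18 of 30 were higher, near the share of all genes (7163 of 11747). Members with an unadjusted p under 0.05 were 2, both higher, where 0.664% of all genes were. Acadl (ENSMUSG00000026003, chr1:66830839-66863277), the long-chain acyl-CoA dehydrogenase that opens beta-oxidation in mouse tissue, was at 415, 697 and 307 in untrained and 2061, 692 and 526 in trained type I fibres. Acadl in type IIb fibres was at 50.9, 184 and 54.6 and 544, 98.5 and 359.7. In both fibre types 1 or 2 trained libraries lay within the untrained range, and the coefficient was 1.5 (SE 0.49, unadjusted p = 0.00659), with a 95% interval of 0.47 to 2.53.

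Eci1 (ENSMUSG00000024132, chr17:24426641-24439348), the isomerase that lets unsaturated fatty acids enter beta-oxidation, was at 15.9, 98.5 and 88.6 in untrained and 154, 254 and 200.1 in trained type IIb fibres, with no overlap. Eci1 in type I fibres was at 175, 262 and 168 against 656, 532 and 143, where trained replicate 3 was the lowest of the 6. The coefficient was 1.36 (SE 0.50, unadjusted p = 0.0139), and the 2 fibre types gave 1.14 for type I and 1.58 for type IIb fibres. The uptake genes of the same list were more widely spread. Lpl, the lipoprotein lipase, was at 2625, 2762 and 1587 in untrained and 10842, 2429.7 and 4017 in trained type I fibres and at 156, 176 and 72.9 against 0.517, 2.73 and 273 in type IIb fibres. Its coefficient was 0.38 (SE 1.16, unadjusted p = 0.75), and it turned negative at -0.09 without type I trained replicate 1 and at -0.87 without type IIb trained replicate 3. Fabp3, the fatty acid carrier of slow and heart muscle, had a coefficient of 0.45 (SE 0.53, unadjusted p = 0.414).

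Tricarboxylic acid cycle enzymes had 12 higher and 4 lower estimates of 16, with a median of 0.35, and 11 of them were higher in both fibre types against 0 lower in both. Idh2 (ENSMUSG00000030541, chr7:80094846-80115392), the mitochondrial isocitrate dehydrogenase that makes NADPH, was at 28.7, 40.6 and 17.5 in untrained and 91.0, 119 and 123 in trained type IIb fibres, so that every trained library lay above every untrained one. Idh2 in type I fibres was at 1186, 1563 and 881 and 1778, 1338 and 1071, which overlapped. The coefficient of 1.07 (SE 0.39, unadjusted p = 0.0122) averaged 0.21 for type I and 1.94 for type IIb fibres, and the difference between them had an unadjusted p of 0.0138. Mdh2, the mitochondrial malate dehydrogenase, was at 679, 914 and 605 against 1854, 1013 and 608 in type I and 946, 865 and 576 against 858, 1063 and 1635 in type IIb fibres. Its coefficient was 0.62 (SE 0.32, unadjusted p = 0.0666), and that of its cytosolic counterpart Mdh1 was 0.61 (SE 0.40, unadjusted p = 0.142). Without the 3 libraries highest in endothelial markers the median of the cycle enzymes was 0.06 and that of the fat oxidation list 0.29.

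Genes of mitochondrial structure had mostly higher estimates. The median of 20 genes of mitochondrial dynamics and protein import was 0.46 (0.22 by limma-voom with quality weights and 0.15 on log2(FPKM + 1)). Of these genes, 16 had a higher estimate, with 12 higher in both fibre types against 1 lower in both. Their summed level was 2157 to 2648 CPM in untrained and 2659 to 2941 in trained type IIb fibres, and 1615 to 2594 against 2545 to 3981 in type I fibres, so the groups were apart in type IIb and overlapped in type I fibres. Branched-chain amino acid breakdown had 11 higher estimates of 14 and a median of 0.45, which was negative by limma-voom with quality weights and on log2(FPKM + 1). None of the members of these 2 lists had an unadjusted p under 0.05.

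All 13 protein-coding genes of the mitochondrial genome had a higher coefficient, with a median of 0.62. That median was -0.10 by limma-voom with quality weights and 0.20 by limma-voom without them, in the duplicateCorrelation fit. All 13 were higher in type I fibres, where 4996 of all 11747 genes were. In type IIb fibres 8 were higher, near the share of all genes (7163 of 11747). The 13 genes are transcribed as long polycistronic RNAs and are thus not independent of one another. Their summed level was 75508, 77836 and 106775 CPM, in ascending order, across untrained type I libraries and 24531, 140560 and 292510 across trained ones, so the trained group enclosed the untrained one. In type IIb fibres it was 228002 to 263259 against 228599 to 289045. The gene mt-Nd4, a complex I subunit, had a coefficient of 0.63 (SE 0.46, unadjusted p = 0.188), mt-Nd1 had a coefficient of 0.53 (SE 0.41, unadjusted p = 0.215) and mt-Cytb, of complex III, had a coefficient of 0.29 (SE 0.47, unadjusted p = 0.547). By limma-voom with quality weights mt-Nd4 and mt-Nd1 were called lower instead, at -0.34 and -0.41 (adjusted p = 2.19e-21 and 0.0227). Neither was called in the duplicateCorrelation fit, which has no such weights, and both estimates were positive there. With summed levels from 24531 to 292510 CPM in 1 group, a p-value as small as 2.19e-21 does not measure the spread between libraries. Its cause was not tested. Type I trained replicate 2 gave 34.7% of its counts to the mitochondrial genome and replicate 3 gave 5.86%, and the median of the 13 genes without replicate 2 was 0.19. Copies of mitochondrial sequence in the nuclear genome can share these reads.

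Of the nuclear genes of the respiratory chain, 52 of 82 had a higher estimate, with a median of 0.12 against 0.13 over all genes, which was negative with DESeq2's size factors and on FPKM, and 60 were higher in type I fibres against 25 in type IIb fibres. Atp5c1, the gamma subunit of the ATP synthase, was at 841, 1422 and 1049 in untrained and 1656, 1533 and 1639 in trained type IIb fibres, without overlap. Atp5c1 in type I fibres was at 732, 1738 and 899 against 3274, 2204 and 774, with overlap, and the coefficient was 0.72 (SE 0.33, unadjusted p = 0.0439). Ndufb10 (ENSMUSG00000040048, chr17:24722060-24724478), an accessory subunit of complex I, had a lower estimate. As a share of the library total it was at 824, 1408 and 1031 CPM in untrained against 448, 493 and 715 in trained type I fibres, and at 914, 885 and 959 against 133, 201 and 762 in type IIb fibres, with no overlap in either fibre type. Scaled by TMM, the type I groups overlapped, with 579 as the lowest untrained and 588 as the highest trained value, and the coefficient was -0.98 (SE 0.38, unadjusted p = 0.0185). Regulators of mitochondrial gene expression had 11 higher and 7 lower estimates of 18. Perm1, a muscle coactivator induced by exercise, had a coefficient of 0.38 (SE 0.66, unadjusted p = 0.575), and Tfam, the packaging factor of mitochondrial DNA, had a coefficient of -0.05 (SE 0.66, unadjusted p = 0.941).

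Cytosolic ribosomal proteins had mostly higher estimates. Of 81 tested, 68 (84.0%) had a higher and 13 a lower estimate, where 54.3% of all genes had a higher one, and the median was 0.37. The split was 79 of 81 higher in type I fibres, where 4996 of all 11747 genes were. In type IIb fibres it was 47 of 81, near the share of all genes (7163 of 11747). Members with an unadjusted p under 0.05 were 5, all higher, where 0.664% of all genes were, and none passed the adjusted test. The summed level was 14565, 14743 and 32771 CPM in untrained against 19972, 30571 and 49525 in trained type I libraries, in ascending order, and 17041 to 31789 against 15117 to 34063 in type IIb libraries, so the groups overlapped in both.

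Rpl4 (ENSMUSG00000032399, chr9:64173375-64178666), a protein of the large subunit, was at 239, 732 and 458 in untrained and 1613, 1174 and 394 in trained type I fibres, and at 645, 413 and 271 against 997, 1000.2 and 542 in type IIb fibres. Its coefficient was 1.04 (SE 0.39, unadjusted p = 0.0148). Rpl5, which binds the 5S RNA of the large subunit, had a coefficient of 1.06 (SE 0.39, unadjusted p = 0.0142) and Rps18, of the small subunit, had a coefficient of 1.11 (SE 0.41, unadjusted p = 0.0139), and for each of these 3 genes at least 1 trained library lay within the untrained range in each fibre type. Rpl8 was at 199, 385 and 183 against 337, 597 and 338 in type I and at 207, 223 and 273 against 435, 619 and 307 in type IIb fibres, where the groups did not overlap, while they overlapped in type I fibres. Its coefficient was 0.84 (SE 0.37, unadjusted p = 0.0344). Rpl3 was low in type IIb fibres, at 0, 7.17 and 12.6 against 95.5, 89.1 and 31.8 without overlap, and had a coefficient of 2.18 (SE 0.94, unadjusted p = 0.0321). Among the most abundant members, Rpl41 had a coefficient of 0.55 (SE 0.45, unadjusted p = 0.234) and Rplp0 had a coefficient of 0.25 (SE 0.39, unadjusted p = 0.52). Ribosomal protein genes have many near-identical processed pseudogenes, so their counts depend on how shared reads were assigned. Without the 3 libraries highest in endothelial markers the median of the list was 0.05, and without type I trained replicate 2 it was 0.14.

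**Figure D4:**
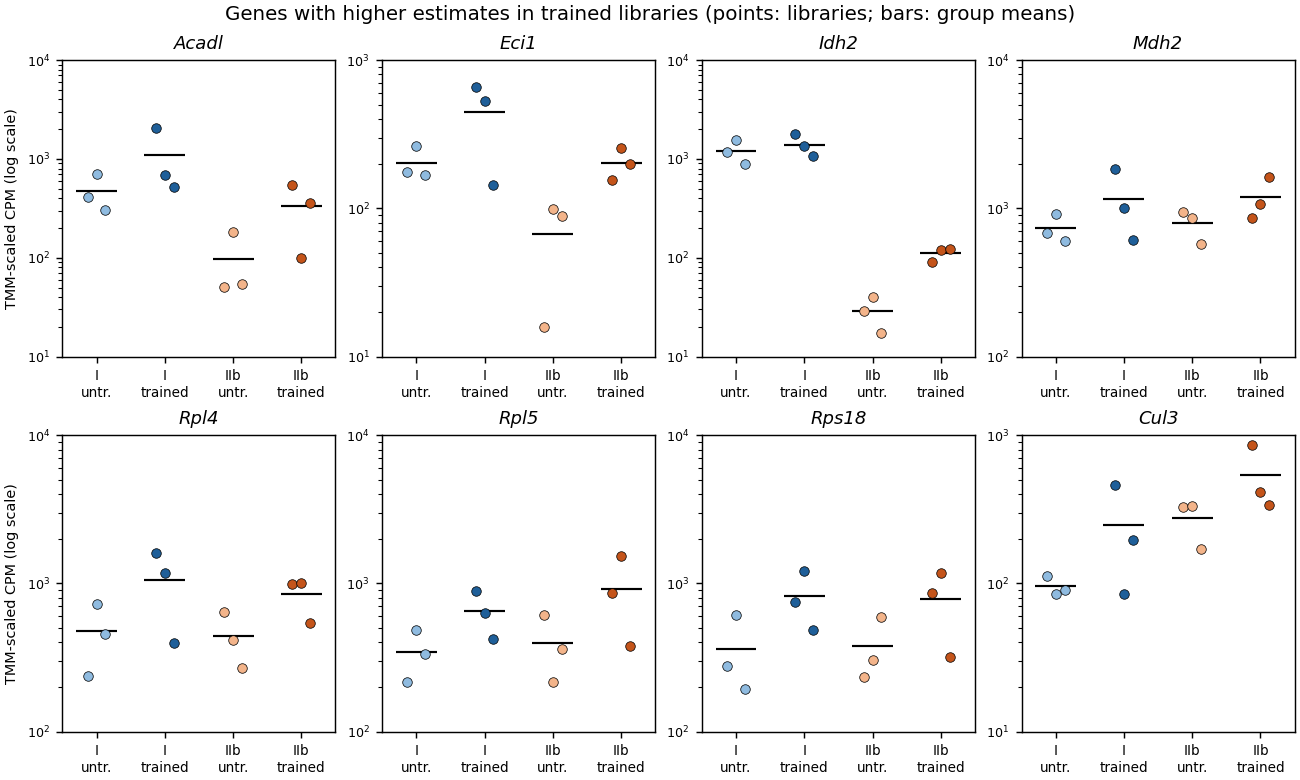
TMM-scaled CPM on log axes of 8 genes with higher estimates in trained libraries, with 1 point per library and a bar at each group mean. For Idh2 the 3 trained type IIb libraries sit at 91.0 to 123, above the untrained ones at 17.5 to 40.6, and for Rpl4, Rpl5 and Rps18 the groups overlap in both fibre types.

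Genes of the contractile apparatus were taken by role. The sarcomere scaffold and Z-disc list had 17 higher and 6 lower estimates of 23 and a median of 0.32 that was negative on FPKM, with 12 members higher in both fibre types against 1 lower in both. Neb, nebulin, the ruler of the thin filament, was at 2472, 5954 and 3191 in untrained and 5889, 9272 and 5587 in trained type IIb fibres and at 3212, 1921 and 2155 against 7033, 1118 and 3696 in type I fibres, where trained replicate 2 was the lowest of the 6. The groups overlapped in both fibre types, and its coefficient was 0.77 (SE 0.34, unadjusted p = 0.0375). Xirp2, an actin-binding repair protein of the intercalated and Z-disc regions, had a coefficient of 1.17 (SE 0.49, unadjusted p = 0.0282), and Ttn, titin, had a coefficient of 1.23 (SE 0.65, unadjusted p = 0.0835). Actn3, the alpha-actinin of fast fibres, was at 1413, 2769.7 and 1697 against 1863, 10397 and 5747 in type IIb fibres, and Actn3 in type I fibres did not exceed 17.6. The groups overlapped, and its coefficient was 1.74 (SE 0.74, unadjusted p = 0.0354). Ank3, an ankyrin that anchors membrane proteins, from the sarcolemma list, had a coefficient of 1.09 (SE 0.52, unadjusted p = 0.0489).

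The myosin genes had no common sign. Fast contractile genes had 4 higher and 9 lower estimates of 13, and slow ones 9 higher and 6 lower of 15. The signs of both medians, -0.47 and 0.17, flipped under at least 4 of the alternatives. Myh4 was at 28459, 55690.5 and 27831 in untrained and 27102, 102683 and 59552 in trained type IIb fibres, which overlapped, and had a coefficient of 1.42 (SE 0.56, unadjusted p = 0.0245), an estimate that also averages over type I fibres, where it did not pass 1.62 CPM. Myh2 was at 48.3, 4.74 and 6.05 in untrained and 0, 0 and 0.757 in trained type I fibres and had a coefficient of -5.37 (SE 2.16, unadjusted p = 0.0224). Myh7 had a coefficient of 1.01 (SE 0.63, unadjusted p = 0.128), Myh1 -0.86 (SE 1.67, unadjusted p = 0.614), Myl2 -0.49 (SE 0.81, unadjusted p = 0.554) and Mylpf -0.57 (SE 0.30, unadjusted p = 0.0726). The Myh7 and Myl2 coefficients also average over type IIb fibres, where both genes were near the limit of counting. Within type I fibres the Myl2 estimate was 0.87, and within type IIb fibres it was -3.59. Atp2a2, the slow calcium pump, singled out after its values were seen, was at 6192, 6274 and 4262 in untrained and 15741, 6110.0 and 8480.1 in trained type I fibres, with overlap. Its coefficient was 1.65 (SE 0.81, unadjusted p = 0.0658), an estimate that also averages over type IIb fibres, whose levels are not given here. It is therefore not to be read as the change within type I fibres alone. By limma-voom the Atp2a2 estimate was 0.90 with quality weights and 0.99 in the duplicateCorrelation fit. Cryab, the chaperone alpha-B crystallin, had a coefficient of -0.01 (SE 0.26, unadjusted p = 0.969). But Cryab was called higher by limma-voom with quality weights at 0.82 (adjusted p = 0.00263) and in the duplicateCorrelation fit at 0.90 (adjusted p = 2.42e-07).

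Excitation-contraction coupling had 10 higher and 3 lower estimates of 13 and a median of 0.39. Ryr1, the calcium release channel of the sarcoplasmic reticulum, was at 490.1, 1748 and 322 in untrained and 1315, 7027 and 3350.0 in trained type IIb fibres and at 759.8, 507 and 366 against 1089, 280.3 and 795 in type I fibres. The groups overlapped in both, and the coefficient was 1.30 (SE 0.52, unadjusted p = 0.0217), made of 0.41 for type I and 2.19 for type IIb fibres. Glycolysis had 9 higher estimates of 15 with a median of 0.05, and glycogen metabolism 8 of 14 with a median of 0.13, and both medians were negative with DESeq2's size factors. Gyg, glycogenin, the primer of glycogen synthesis, was at 602, 914 and 500.1 against 2306, 1147 and 523 in type I and 118, 526 and 437 against 869, 719.7 and 504 in type IIb fibres, with overlap in both, and had a coefficient of 0.97 (SE 0.40, unadjusted p = 0.0263). Pkm, the last enzyme of glycolysis, was at 913, 1139.7 and 1069 against 1147, 5202 and 2496 in type IIb fibres, with no overlap. Pkm in type I fibres was at 409, 479 and 228 against 532, 613 and 298, with overlap, and the coefficient of 0.94 (SE 0.38, unadjusted p = 0.0218) averages 0.37 for type I and 1.5 for type IIb fibres.

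**Figure D5:**
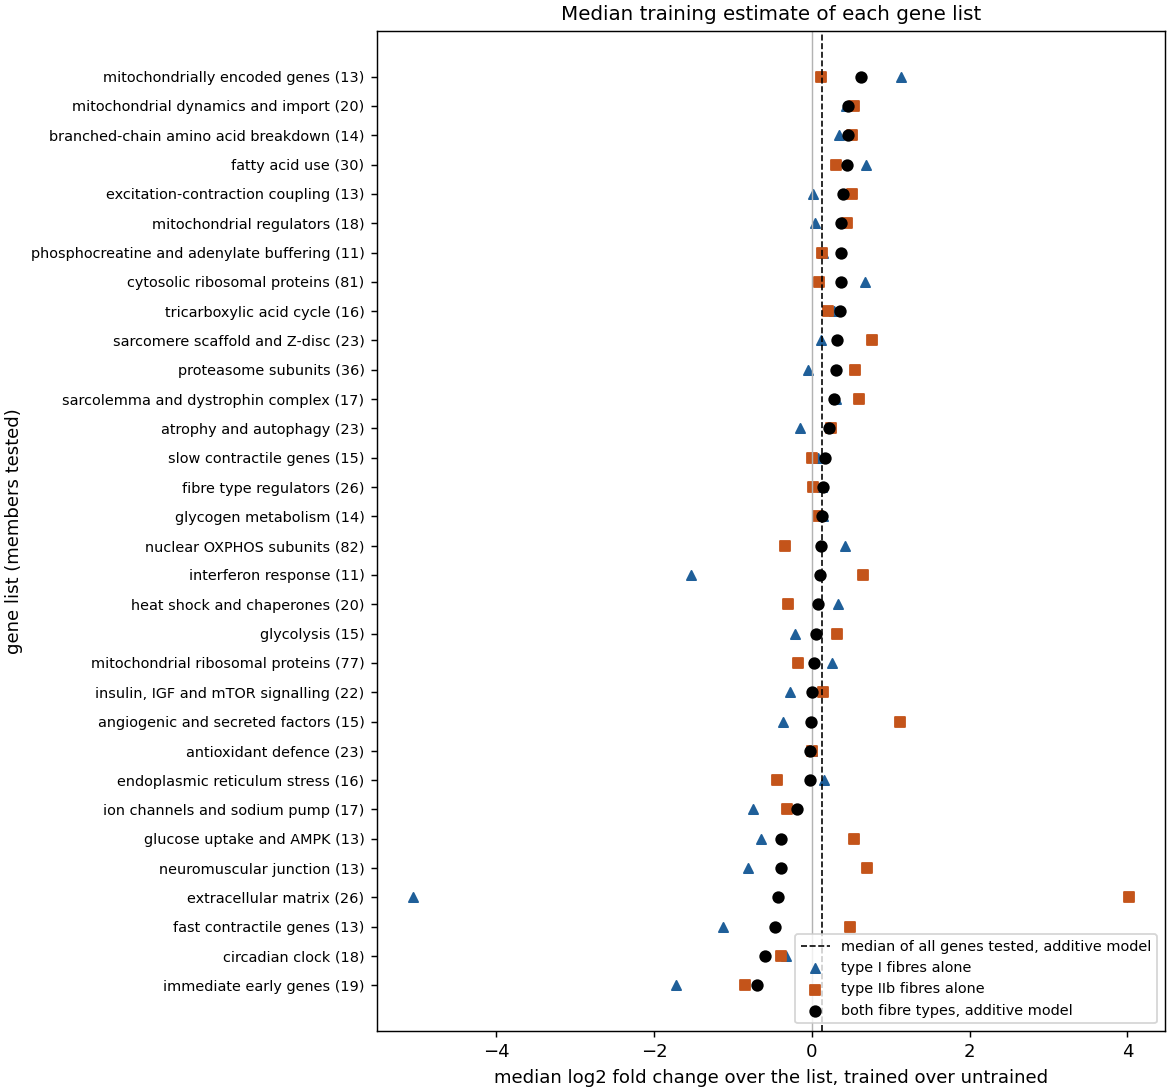
Median training log2 fold change of each of 32 gene lists in the additive model (circles) and within type I (triangles) and type IIb fibres (squares), with the number of members tested in brackets, members at 0 in a group set at their bound within a fibre type, and a dashed line at 0.13, the additive median of all genes tested. Immediate early genes lie lowest at -0.69 and mitochondrially encoded genes highest at 0.62 (-0.10 by limma-voom with quality weights), and for the extracellular matrix the 2 fibre types lie on opposite sides.

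The rule also named the 12 genes with the smallest p-values in each direction, and 2 of those outside the lists on the higher side had levels well above the counting limit. Cul3 (ENSMUSG00000004364, chr1:80264923-80340480), the scaffold of a ubiquitin ligase family, was at 329, 334 and 171 in untrained and 859, 412 and 336 in trained type IIb fibres, with no overlap, and at 112, 84.9 and 90.1 against 460.1, 84.3 and 197 in type I fibres, where trained replicate 2 was the lowest of the 6. The coefficient was 1.16 (SE 0.45, unadjusted p = 0.0178). Uba3 (ENSMUSG00000030061, chr6:97183670-97205647), part of the enzyme that activates NEDD8, the modifier of cullins, was at 83.8, 72.2 and 38.8 against 320.4, 175 and 82.6 in type I and 51.2, 9.82 and 26.5 against 179.7, 61.2 and 66.3 in type IIb fibres. The groups overlapped in type I and did not in type IIb fibres, and its coefficient was 1.69 (SE 0.64, unadjusted p = 0.0158). The proteasome list had 25 higher and 11 lower estimates of 36, a median of 0.31 that was negative on FPKM, and no member with an unadjusted p under 0.05.

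Most of the remaining genes with the smallest p-values were near the limit of counting. On the lower side 97 of the 121 genes had a mean under 10 CPM and 25 were at 0 in all 6 trained libraries, whereas on the higher side 23 of 78 had a mean under 10 CPM and 2 were at 0 in all 6 untrained libraries. Mgp (ENSMUSG00000030218, chr6:136872435-136875823), which encodes matrix Gla protein of cartilage and vessel walls, was at 17.5, 1.65 and 1152 in untrained type I fibres, at 0 to 0.184 in untrained type IIb fibres and at 0 in all 6 trained libraries. Set against a floor of 3 counts over the 6 trained libraries, it was at least 9556-fold lower there (unadjusted p = 7.59e-05), and 99.3% of its 43724 untrained counts came from type I untrained replicate 3, the library with 9646 CPM of fibroblast markers. Without that library the bound was 111-fold and the adjusted p was 1 (edgeR). Sox13, Galnt18, Pcsk7 and Ticam1 were likewise at 0 in all 6 trained libraries. Their highest untrained values were 14.4, 11.3, 5.47 and 4.74 CPM, and they were at least 135-fold, 111-fold, 57.0-fold and 55.1-fold lower by the same floor. Without type I untrained replicate 3, which held the most counts of each, the bounds were 131-fold for Sox13, 28.6-fold for Galnt18, 19.2-fold for Pcsk7 and 33.2-fold for Ticam1.

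Adat2, Gfra4, Zfp286 and Xlr3b held no more than 0.249 CPM in any trained library and 10.1, 7.61, 11.5 and 15.5 CPM in their highest untrained one. Il15, a muscle cytokine, was at 1.02, 5.17 and 2.92 against 0 in all 3 trained type I libraries and at 318, 19.2 and 0 against 0, 0 and 8.73 in type IIb fibres. On the higher side Ercc8 was at 0.498, 109.9 and 1.69 in trained type I fibres against at most 0.790 in untrained ones, and its type IIb values were 0 apart from 4.33 in trained replicate 3. Platr25, Osbp2 and Mipol1 reached 20.5, 12.8 and 6.83 CPM, each in type I trained replicate 2. Ercc8 was highest in that library too.

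Some secreted and stress-related list members at low levels had an unadjusted p under 0.05. Igf1, the growth factor, was at 0.240, 6.10 and 170.2 in untrained and 0.124, 0.118 and 2.67 in trained type I fibres and 1.95, 47.7 and 0 against 0, 0 and 2.81 in type IIb fibres, with a coefficient of -4.99 (SE 2.08, unadjusted p = 0.0266), which was -3.10 without type I untrained replicate 3. Bdnf, a neurotrophin that muscle also makes, was at 21.2, 17.7 and 24.2 in untrained and 93.2, 156 and 16.6 in trained type I fibres and near 0 in type IIb fibres, with a coefficient of 3.36 (SE 1.49, unadjusted p = 0.0365). Within type I fibres the Bdnf estimate was 2.07. Within type IIb fibres, where no library passed 1.88 CPM, it was 6.19. Sdf2l1, of the endoplasmic reticulum chaperone complex, was at 1.44, 12.9 and 16.4 against 1.24, 0.236 and 2.67 in type I and at 88.9, 2.90 and 1.29 against 0.129, 0 and 0.217 in type IIb fibres and had a coefficient of -5.28 (SE 2.08, unadjusted p = 0.0201). Tap1, the antigen peptide transporter, was at 0.720, 2.30 and 1.96 in untrained type I fibres and at 0 in every other library. Of the angiogenic genes, Vegfa had a coefficient of -0.36 (SE 0.47, unadjusted p = 0.444), and of the antioxidant genes, their regulator Nfe2l2 had a coefficient of 1.64 (SE 1.02, unadjusted p = 0.123).

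Few genes separated the groups without overlap in both fibre types. On CPM of the library total, 4 of 11747 genes (0.0341%) were higher in all trained than in all untrained libraries of each fibre type and 13 (0.111%) were lower. The 4 are Bicral, Cep120, D9Wsu149 and 1 gene without a symbol (ENSMUSG00000118642), named after their values were seen. Cep120, a centriole protein, was at 19.7, 35.2 and 43.2 CPM against 54.8, 69.1 and 49.8 in type I and at 0, 5.34 and 0 against 24.1, 78.2 and 16.2 in type IIb fibres. Its coefficient was 2.96 (SE 1.54, unadjusted p = 0.0691), that of Bicral 3.04 (SE 1.51, unadjusted p = 0.0579) and that of D9Wsu149 2.24 (SE 1.44, unadjusted p = 0.137). Ndufb10 was the 1 list member among the 13 lower genes. Scaled by TMM, 8 genes were separated on the higher and 6 on the lower side.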

How the data were processed

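The authors deposited a table of raw counts per gene and tables of FPKM values for 12 SMART-Seq libraries. Reads were aligned with TopHat2 to mm10, per the submitters' processing notes, and neither the counter nor the annotation release nor the handling of shared reads is named there or in the labels. The deposited FPKM values served only for an alternative, as log2(FPKM + 1) and log2(FPKM + 0.1). From the deposited counts, genes were kept by edgeR's filterByExpr (at least 10 counts, total 15), which left 11747 of 56162 features. Libraries were scaled by TMM and fitted with edgeR 4.0.16 (R 4.3.3, quasi-likelihood F test, robust) on fibre type plus training. A fit with a mean for each of the 4 groups gave the effects within a fibre type. Standard errors are the log2 fold change over the root of F. The code was tested on simulated counts. Alternatives used DESeq2 1.42.0 and limma 3.58.1, other scalings and filters, blocks and left-out libraries.

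The lists and the rules were chosen with earlier results of these data known. The rule named the 12 genes with the smallest p in each direction (passing over predicted genes and pseudogenes), the list members with an unadjusted p under 0.05, the 3 most abundant members of each list, list members without overlap, and the myosins of each fibre type. It chose 133 genes, and 73 are given, 4 of them chosen after their values were seen. Promoters are RefSeq's, of build GRCm38.p6.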

Additional observations from a re-analysis of the deposited data

How the results depend on the processing

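The count of 0 calls in either direction held with RLE and TMMwsp scaling, the stricter filter, no robust prior, the mean of the within-fibre effects, limma on FPKM and the detected-gene covariate. It also held for all 12 single left-out libraries and without the 2 with the fewest genes, a set added after seeing the data. The other added set, without the 3 libraries with the most endothelial markers, leaves 1 untrained type I library. Only effect sizes are given for it. DESeq2 called 1 higher (a feature without a gene symbol) and 1 lower (Gm4925). Limma-voom with quality weights called 2 higher (Atp2a2, Cryab) and 4 lower (mt-Nd4, Myl1, mt-Nd1, mt-Nd2), and no low-count filter gave 0 higher and 3 lower (Mgp, Tnmd, Fmod). The cause was not tested. Genes at an unadjusted p under 0.05 numbered 102 higher and 471 lower without type IIb trained replicate 3, and 240 and 209 for the mean of the within-fibre effects. The share of higher estimates was 54.3% here, 49.3% with RLE, 39.5% with limma-voom and quality weights, and 34.7% on log2(FPKM + 1). Genes without overlap numbered 8 higher and 6 lower on TMM-scaled CPM, and 7 to 31 higher and 18 to 64 lower when 1 library was left out, where fewer libraries have to be apart.

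The labels give same-numbered libraries only a number in common, and whether they share a mouse is not stated. The correlations of their deviations ran from -0.06 to 0.20, and the libraries were treated as independent. With the replicate block, across or within fibre types, 0 genes were called. With the block by training and number (duplicateCorrelation), 7 were higher and 1 lower. That fit used limma-voom without quality weights in place of edgeR, and its correlation within blocks was 0.010. The replicate block turned Myh1 to 0.24, and the block within fibre type turned mt-Cytb to -0.051, Lpl to -0.38 and Cryab to 0.040. In the duplicateCorrelation fit Cryab was 0.90, Fabp3 -0.69 and Rplp0 -0.32.

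Of 73 named genes, 11 changed sign under some alternative. With limma-voom and quality weights, mt-Cytb was -0.33, mt-Nd1 -0.41, mt-Nd4 -0.34, Cryab 0.82, Fabp3 -0.67, Tfam 0.033 and Rplp0 -0.37. On log2(FPKM + 1) and log2(FPKM + 0.1), mt-Cytb was -0.33 and -0.33, mt-Nd1 -0.033 and -0.033, Lpl -1.11 and -1.64, Fabp3 -0.017 and -0.025, and Rplp0 -0.13 and -0.13. With TMMwsp, Cryab was 0.045. Leaving out 1 library at a time gave -0.35 to 0.49 for mt-Cytb, -0.12 to 0.19 for Cryab, -0.87 to 0.76 for Lpl, -1.24 to 0.51 for Atf3, -0.42 to 0.23 for Tfam, -0.12 to 0.43 for Rplp0 and -2.12 to 0.54 for Myh1. Without the 3 libraries with the most endothelial markers, Lpl was -0.35 and Myh1 0.22, and without the 2 with the fewest genes, Cryab was 0.24 and Myl2 0.040. Depth limits the genes under 10 CPM, whose 95% intervals had a median half-width of 4.31 on the log2 scale.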

Other observations

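Several lists not described in the report had medians near that of all genes. Mitochondrial ribosomal proteins had 41 higher and 36 lower estimates of 77 and a median of 0.03. Heat shock proteins and chaperones had 11 higher and 9 lower of 20, and genes of endoplasmic reticulum stress 8 higher and 8 lower of 16. Atrophy and autophagy genes, which run the breakdown of muscle protein, had 13 higher and 10 lower estimates of 23 and a median of 0.22. Insulin, IGF and mTOR signalling had 11 of 22 on each side.

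Extracellular matrix genes had 17 lower and 9 higher estimates of 26, with 1 member higher in type I and 24 higher in type IIb fibres. Their summed level was 128, 551 and 10928 CPM, in ascending order, across untrained type I libraries, and 192, 221 and 316 across trained ones. In type IIb fibres it was 105 to 130 against 130 to 584. The median of -0.43 changed sign under 8 of the alternatives, among them leaving out type I untrained replicate 3 or any 1 of the 3 trained type I libraries.

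Phosphocreatine and adenylate buffering genes, which keep ATP steady during contraction, had 8 higher and 3 lower estimates of 11 and a median of 0.37 that was negative on FPKM. Their summed level was 3434 to 5207 CPM in untrained and 4769 to 6096 in trained type IIb fibres, which overlapped. The sarcolemma and dystrophin complex had 12 higher of 17. Its summed level in type IIb fibres was nevertheless lower in trained libraries, at 2657 to 3354 CPM in untrained and 2128 to 2456 in trained ones, without overlap. In type I fibres it was 1569 to 1682 against 1542 to 3974, with overlap. Neuromuscular junction genes had 6 higher of 13.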
